A study of Mus musculus with 2 samples.

Results

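The 6 mouse hairpin genes Mir338, Mir3065, Mir219a-1, Mir219a-2, Mir219b and Mir219c make up the miR-219 and miR-338 group, whose best known site of action is the oligodendrocyte, the myelin-forming cell of the brain. They were chosen by gene name from the GENCODE M21 annotation, and all 6 of them were found among the 2202 miRNA genes in the count tables. The tables come from small RNA sequencing of total RNA, limited to fragments under 30 nt, from the hippocampus of female mice of the strain B6CASTF1/J, at an age of 18 to 20 months. These animals are hybrids of a laboratory B6 parent and a wild-derived CAST parent. No treatment is recorded in the labels. There is 1 group of 2 libraries, numbered as biological replicates 1 and 2, so there is no second condition and no test between conditions. The labels name the tissue as a layer of the hippocampus, without saying which layer. Each library has its own animal number in the labels but the same donor record, so the spread between them may be partly technical.

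A miRNA gene is transcribed as a hairpin, and either arm can be cut out as a mature miRNA. The mature strand then guides repression of messenger RNAs that match its seed, bases 2 to 8. In mice, miR-219 and miR-338 increase as oligodendrocyte precursors mature, and they repress genes that keep precursors dividing and immature, among them Pdgfra, Sox6 and Hes5. Loss of miR-219 in mice impairs myelination. Both miRNAs have also been described in neurons: miR-219 in circadian timing and glutamate receptor signalling in mouse brain, and miR-338 in axons of rat neurons. These counts come from bulk tissue, so they do not say which cells held the RNA, and fewer cells of a type cannot be told apart from less RNA per cell.

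The sequences below show how the genes are related, which decides how their reads can be counted. Mature sequences are those that RefSeq lists on GRCm38.p6 for the 6 hairpins, written 5′ to 3′ with the seed in capitals.
miR-338-3p: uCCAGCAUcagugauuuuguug
miR-338-5p: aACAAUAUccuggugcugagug
miR-3065-5p: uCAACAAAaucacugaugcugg
miR-219a-5p: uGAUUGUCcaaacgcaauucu
miR-219a-1-3p: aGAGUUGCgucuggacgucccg
miR-219b-5p: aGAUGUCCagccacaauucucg
miR-219b-3p: aGAAUUGCguuuggacaaucagu
miR-219c-5p: gGACGUCCagacgcaacucucg
miR-219c-3p: cGAGAAUUgcguuuggacaauc
The 9 mature sequences have 9 different seeds, so names such as miR-219a, miR-219b and miR-219c do not stand for a shared seed. None of the other mature mouse miRNAs in the RefSeq table had any of these 7-base seeds.

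The miR-219a-5p sequence of 21 bases occurs in 2 hairpins, Mir219a-1 and Mir219a-2, and each of the other mature sequences occurs in 1 hairpin on its own strand. In the hairpins below, capitals mark the longest stretch that both contain, 22 bases with miR-219a-5p inside it.
Mir219a-1: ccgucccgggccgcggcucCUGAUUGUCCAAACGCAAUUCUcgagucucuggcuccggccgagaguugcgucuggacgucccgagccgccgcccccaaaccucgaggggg
Mir219a-2: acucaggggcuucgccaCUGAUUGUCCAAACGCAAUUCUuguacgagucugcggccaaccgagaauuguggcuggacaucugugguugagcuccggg
Beyond that stretch, toward the 3′ end, the longest run that both contain is 7 bases. Of the 22 bases of miR-219a-1-3p, 15 are identical in the best ungapped window of Mir219a-2. A read of exactly miR-219a-5p therefore fits both genes, while a full-length read of the other arm fits 1 of them. The deposited tables hold a total for reads that fit several places, and those reads are in no gene's count. For each counted read there were 1.20 multimapping reads in replicate 1 and 1.29 in replicate 2, and the tables do not say how many were miR-219a-5p. All levels of the Mir219a genes below are therefore levels of the reads that were assigned to 1 gene, and they can be too low. For Mir338 and Mir3065, 0 windows of 20 bases occur in a hairpin elsewhere, whereas 1087 of the 2202 genes (49.4%) share such a window with a hairpin at another place.

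Each of the 3 loci holds a pair of hairpins on opposite strands. Mir338 (ENSMUSG00000065600.1) lies on the minus strand at chr11:120014765-120014862 of mm10. It is in an intron of all 6 annotated transcripts of Aatk that cross it, on the same strand. Aatk encodes a kinase of the nervous system. Mir3065 (ENSMUSG00000105524.1) lies within it on the plus strand at chr11:120014767-120014853. Mir219a-2 (ENSMUSG00000065485.1) lies between genes on the minus strand at chr2:29845631-29845727, 629 bases from the end of Urm1, which runs on the other strand. Mir219b (ENSMUSG00000105010.1) lies within it on the plus strand at chr2:29845647-29845711. Mir219a-1 (ENSMUSG00000065555.1) lies on the minus strand at chr17:34024983-34025092, 303 bases from Ring1. It overlaps the exon of the noncoding RNA Gm26940 on the same strand, which is not among the counted genes. Mir219c (ENSMUSG00000105964.1) lies within it on the plus strand at chr17:34025012-34025071.

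At all 3 loci, listed mature sequences of the opposite strands also lie over each other. On chr2, miR-219a-5p lies within the span of miR-219b-3p, and on chr17 it overlaps miR-219c-3p. The Mir338 locus is shown here. miR-338-3p spans chr11:120014781-120014802 and miR-3065-5p spans chr11:120014780-120014801, so each is the reverse complement of the other but for a shift of a single base. Their seeds come from opposite ends of the stretch. Capitals mark miR-338-3p in the Mir338 hairpin and miR-3065-5p in the Mir3065 hairpin.
Mir338: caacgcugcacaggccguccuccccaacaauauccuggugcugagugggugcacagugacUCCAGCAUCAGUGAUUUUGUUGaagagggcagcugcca
Mir3065: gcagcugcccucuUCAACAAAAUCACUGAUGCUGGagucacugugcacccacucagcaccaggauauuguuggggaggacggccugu

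**Figure D1:**
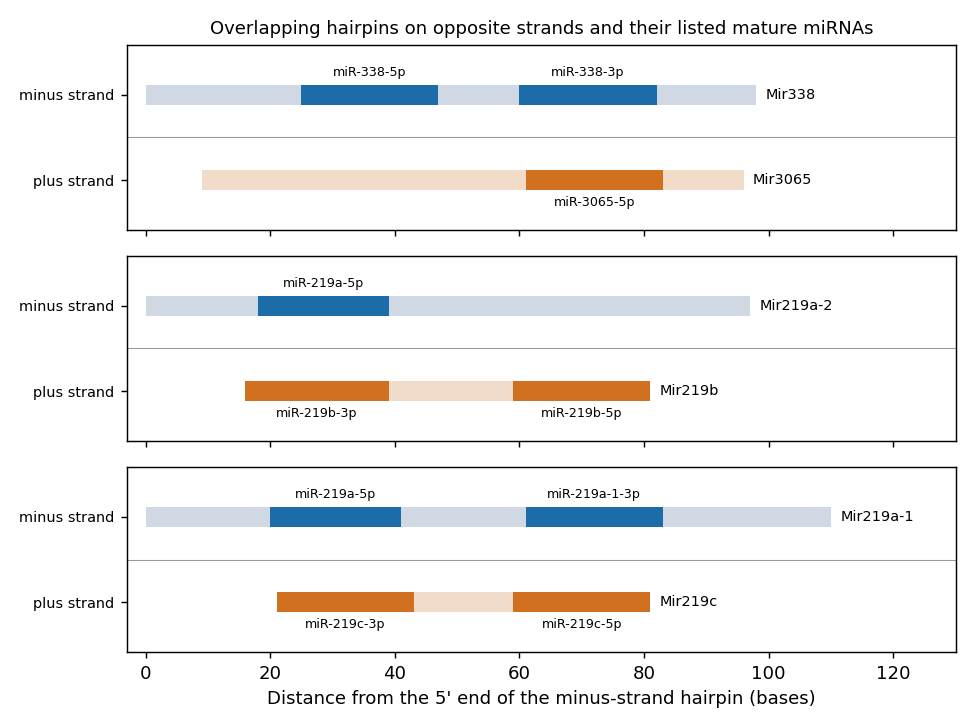
Map of the 3 loci, with distance in bases from the 5′ end of the minus-strand hairpin on the horizontal axis and the strands as rows. Pale bars are hairpins of 60 to 110 bases and dark bars the mature miRNAs that RefSeq lists; each plus-strand hairpin lies inside its minus-strand partner.

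Levels are sense-strand counts scaled to a library total of 1000000 (CPM). Replicate 1 held 2255838 sense counts in miRNA genes and replicate 2 held 4521208, and 29.0% of the reads of replicate 1 were unmapped against 11.2% in replicate 2. A count of 0 allowed up to 3 counts, or 1.33 CPM in replicate 1 and 0.664 CPM in replicate 2. Ranges in brackets are exact 95% Poisson intervals, and like the floors they cover counting error only.

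Mir338 and Mir219a-2 held nearly all counts of the group. Mir338 had 9111 counts in replicate 1, which is 4039 CPM (3956 to 4123). It had 12860 counts in replicate 2, which is 2844 CPM (2795 to 2894). It ranked 47th and 52nd among the miRNA genes of the libraries. Mir219a-2 had 6279 counts in replicate 1, which is 2783 CPM (2715 to 2853). It had 11513 counts in replicate 2, which is 2546 CPM (2500 to 2593). It ranked 59th and 55th. In these counts each Mir338 value lay above both Mir219a-2 values, so the ranges of these genes over the libraries did not overlap. Reads that fit both Mir219a genes, such as those of exactly miR-219a-5p, are not in the Mir219a-2 values. Those values are therefore not a level of miR-219a-5p, and which arm their reads came from was not tested. RefSeq lists no mature sequence for the other arm of Mir219a-2.

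The remaining members were close to the floor or had no count. Mir219a-1, the second gene that carries miR-219a-5p, had 15 counts in replicate 1, which is 6.65 CPM (3.72 to 10.97), and 19 in replicate 2, which is 4.20 CPM (2.53 to 6.56). Mir3065 had 7 counts in replicate 1, which is 3.10 CPM (1.25 to 6.39), and 1 in replicate 2, which is 0.221 CPM (0.0056 to 1.23). Mir219b and Mir219c had 0 counts in both libraries. In order of mean level, Mir338 stood at 3442 ± 845 CPM (SD, n = 2), Mir219a-2 at 2665 ± 168 CPM, Mir219a-1 at 5.43 ± 1.73 CPM and Mir3065 at 1.66 ± 2.04 CPM. Between Mir219a-1 and Mir3065 the intervals overlapped in replicate 1 but not in replicate 2. The levels of Mir3065, Mir219b and Mir219c in replicate 2 could not be told apart at this depth.

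**Figure D2:**
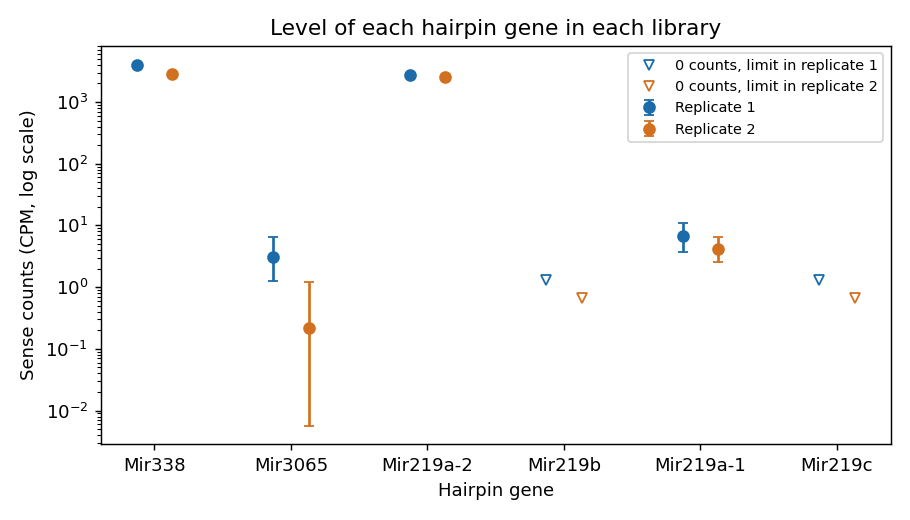
Sense counts of each gene in CPM on a log axis, with a point per library and exact 95% Poisson intervals as bars; open triangles show the limit that a count of 0 allows. Mir338 and Mir219a-2 lie between 2546 and 4039 CPM, and Mir219a-1 and Mir3065 below 10 CPM.

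Together the 6 genes took 0.683% of the sense counts of replicate 1 and 0.54% of those of replicate 2. Of the group's counts, Mir338 made up 59.1% in replicate 1 and 52.7% in replicate 2, and Mir219a-2 made up 40.7% and 47.2%. The ratio of Mir338 to Mir219a-2 in counts thus had a different value in each library. It was 1.45 in replicate 1 (exact 95% conditional interval 1.40 to 1.499) and 1.12 in replicate 2 (1.09 to 1.15), and these intervals do not overlap. They cover counting error only, so the spread between tissue samples is not in them. Counted per length of hairpin the ratios were 1.44 and 1.11. The hairpins are 98 and 97 bases long, so scaling by length could hardly alter the ratio. In these counts Mir338 was the higher gene in both libraries. Reads that fit both Mir219a genes are not in the Mir219a-2 counts, so the order with those reads included was not tested.

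The counts of the copies that carry miR-219a-5p were very unequal. Mir219a-2 had 419 times the counts of Mir219a-1 in replicate 1 (interval 254 to 748) and 606 times in replicate 2 (388 to 1007). Per length of hairpin the ratios were 475 and 687. Over both libraries, Mir219a-1 had 34 counts against 17792 for Mir219a-2, a share of 0.191%. Among the 23 pairs of genes named as copies 1 and 2 of a miRNA with at least 1 member at a mean of 1 CPM, this was the widest ratio, taken with a pseudocount of 0.5 counts (516, against a median of 4.58). In 8 of the 23 pairs it was 10 or more. The pairs next in order were Mir194 at 335, with 167 counts against 0, and Mir181b at 82.4. The count of 0 makes the Mir194 ratio depend on the pseudocount. Reads that fit both genes of a pair are absent from these ratios, so they describe the reads that distinguish the copies.

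The counted reads at all 3 loci came almost entirely from the minus-strand hairpins. At the Mir338 locus, 7 of 9118 sense counts of the pair in replicate 1 were Mir3065, or 0.0768% (exact 95% binomial interval 0.0309 to 0.158), and 1 of 12861 in replicate 2, or 0.00778% (0.000197 to 0.0433). At the Mir219a-2 locus, 0 of 6279 counts in replicate 1 and 0 of 11513 in replicate 2 were Mir219b. By the limit of 3 counts for a count of 0, this allows a share of up to 0.0478% and 0.0261%. At the Mir219a-1 locus, 0 of 15 and 0 of 19 counts were Mir219c. By the same limit, a Mir219c share of up to 20% and 15.8% would not have been detectable with so few counts. Mir219b and Mir219c share a stretch of 20 bases, and reads that fit both are in no gene's count.

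The antisense column counts the reads on the strand opposite to a gene, and at these loci it mirrored the partner. Mir3065 had 9111 antisense counts in replicate 1 and 12860 in replicate 2, the same numbers as the sense counts of Mir338. In turn, Mir338 had 7 and 1 antisense counts, the sense counts of Mir3065. Mir219c had 15 and 19 antisense counts, the sense counts of Mir219a-1. Mir219b had 6278 and 11513, which is 1 read fewer than Mir219a-2 in replicate 1 and equal in replicate 2. Mir219b spans 65 of the 97 bases of Mir219a-2, so a single read at Mir219a-2 was not counted over that span. Antisense counts at Mir3065, Mir219b and Mir219c are therefore the reads of Mir338, Mir219a-2 and Mir219a-1 again, not further RNA.

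In the column that ignores strand, the group was all but absent. Mir219a-2 had 1 count there in replicate 1 and 0 in replicate 2, and the other 5 genes had 0 in both libraries. The sense counts missing from that column came to 15411 in replicate 1 and 24393 in replicate 2. That equals 8.56% and 5.82% of the reads that the unstranded count set apart as ambiguous. Levels of these genes taken from unstranded counts would hence be at or near 0.

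**Figure D3:**
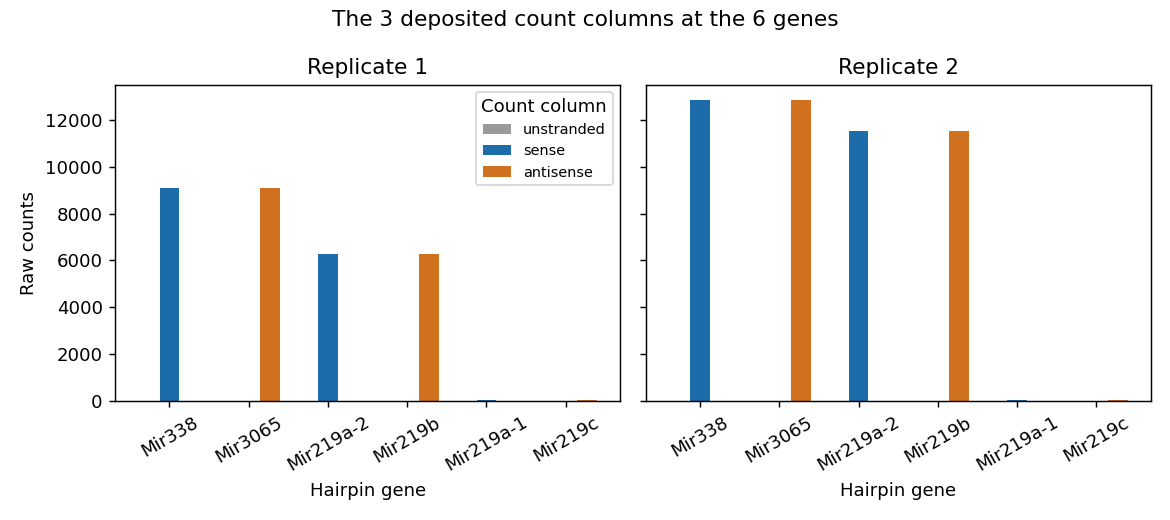
Raw counts of the 6 genes in the unstranded, sense and antisense columns, with a panel per library and a linear axis from 0. The sense bars of Mir338 (9111 and 12860) and Mir219a-2 (6279 and 11513) recur as antisense bars of Mir3065 and Mir219b, and the unstranded bars are at 0 or 1.

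Opposite-strand pairs were not particular to these loci. The tables hold 32 pairs of miRNA genes that overlap on opposite strands, and in 27 of them the gene with more counts had a mean of at least 1 CPM. In 21 of those 27 pairs the other gene had 0 counts, as at both miR-219 loci. Mir3065 made up 0.0364% of the Mir338 locus over both libraries, and in 4 pairs the lesser gene had a larger share. The largest such share was that of Mir3074-1 against Mir24-1, at 18.7%. Both genes have a further named copy, Mir3074-2 and Mir24-2. Reads that fit both copies of a miRNA are in no gene's count, so this share can be too high or too low. By counts of the leading gene, Mir338 and Mir219a-2 were 6th and 7th of the 32 pairs.

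The hairpins of the group differed in base composition and in computed stability. Mir219a-1 had a GC content of 69.1%, higher than 96.2% of the 2202 hairpins, against a median of 50.8%. The other members lay between 49.2% (Mir219b) and 58.3% (Mir219c). The computed minimum free energy was -58.7 kcal/mol for Mir219a-1, -48.2 for Mir219a-2, -41.9 for Mir338 and -39.0 for Mir3065. Mir219b and Mir219c are annotated as shorter hairpins of 65 and 60 bases, and theirs were -18.8 and -26.8 kcal/mol. Per base, Mir219b was the least stable of the group at -0.289 kcal/mol, against a median of -0.369 over all hairpins, and the other 5 lay between -0.428 and -0.534. The order of stability per base was not the order of the counts. Mir219a-1 was the most stable per base and had few counts, which leave out reads that fit both Mir219a genes. A link between stability and level was not tested.

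In the ranked profile of the tissue, Mir338 stood 50th and Mir219a-2 59th by mean level. The gene next above Mir338 was Mir674, with 3174 CPM (replicate 1) and 4117 CPM (replicate 2). Next below was Mir378a, at 2855 and 3587 CPM. Next above Mir219a-2 was Mir676, at 3247 and 2262 CPM, and next below was Mir485, at 2924 and 2114 CPM. The values of each of these neighbours overlapped with those of the gene they adjoin.

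The genes most alike in level were named by distance in log2(CPM + 1) over both libraries. Nearest to Mir338 were Mir138-1 (distance 0.30, 3602 and 2386 CPM in replicates 1 and 2), Mir369 (0.39, 4504 and 3644 CPM) and Mir598 (0.41, 3050.3 and 2786 CPM). Nearest to Mir219a-2 were Mir27b (0.16, 2505 and 2467 CPM), Mir598 (0.19) and Mir485 (0.28). Mir338 and Mir219a-2 were not among the 3 nearest genes of each other. With 2 libraries, such likeness is of level and of a single difference, and says nothing of shared control.

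**Figure D4:**
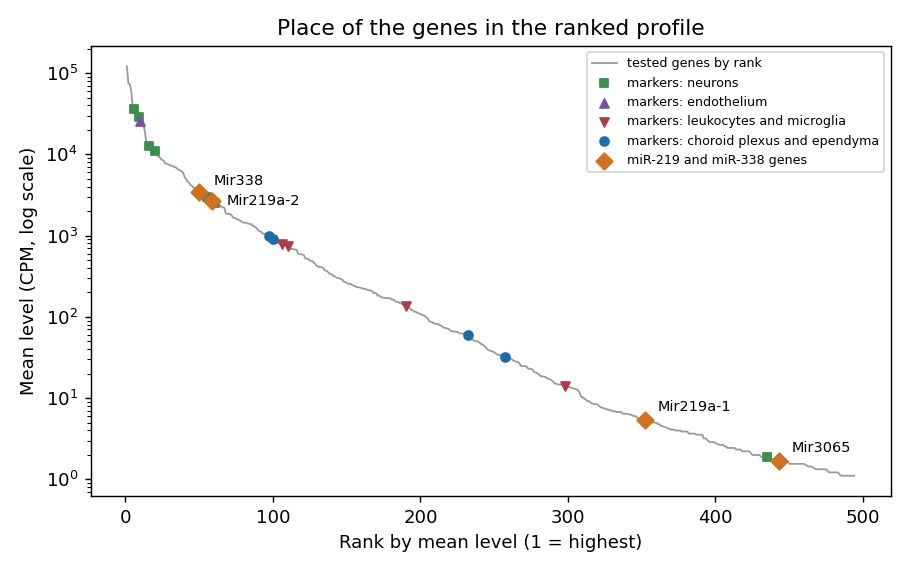
Mean CPM on a log axis against rank for the 495 genes whose mean reached 1 CPM, with the miR-219 and miR-338 genes as diamonds and markers of other cell types as smaller symbols. Mir338 lies at rank 50, below 4 of the 7 neuronal markers shown. Mir219a-2 lies at rank 59, below those 4 and the neuronal Mir138-1 (rank 55). Both lie below the endothelial Mir126a and above the markers of leukocytes and of choroid plexus.

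Markers of other cells place these levels in a mixed tissue. The 3 oligodendrocyte markers, all of them members, summed to 6829 CPM (replicate 1) and 5395 CPM (replicate 2). The 9 neuronal markers summed to 105460 and 82318 CPM, with Mir124a-1, Mir124a-2 and Mir124a-3, copies of a single miRNA, all below 3 CPM. Reads that fit several of these copies are in no gene's count, so these levels and the neuronal sum can be too low. Reads that fit both Mir219a genes are likewise left out, so the oligodendrocyte sum can be too low as well. Mir128-1 and Mir128-2 are also named as copies. The endothelial Mir126a stood at 21890.3 and 29026 CPM, and the smooth muscle genes Mir143 and Mir145a summed to 7806 and 9326 CPM. Leukocyte and microglial markers summed to 1694 and 1682 CPM over 5 genes, of which Mir142b was at 0. The choroid plexus and ependyma markers, 4 genes, summed to 2730.3 and 1250.3 CPM, and the erythroid Mir451a and Mir144 to 122 and 120 CPM. Between the libraries the oligodendrocyte sum had a log2 ratio of -0.34 (replicate 2 over replicate 1), the neuronal sum of -0.36 and the choroid plexus sum of -1.13. The neuronal sum was carried by Mir132 (-1.09) and Mir127 (-0.34), whereas Mir128-1 (0.52), Mir128-2 (0.46) and Mir137 (0.24) were higher in replicate 2. Of the 7 neuronal markers tested, 3 were lower in replicate 2, and their median log2 ratio was 0.24. The part of such differences in the ratios below was not tested.

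Between the libraries, Mir338 and Mir219a-2 were both within 2-fold. A gene was counted as different at 2-fold or more, with a pseudocount of 0.5 counts. Of the 495 genes whose mean level reached 1 CPM, 25.9% passed that fold, 7.68% higher and 18.2% lower in replicate 2. Of the 4 members among them, Mir3065 alone passed it. Mir3065 reached the mean of 1 CPM only through replicate 1, where it is high (3.10 CPM against 0.221 CPM), so nothing is read from its passing. Mir219b and Mir219c, without counts, were not in that set. Each library is a single tissue sample, so no replicated test of a difference exists, and the intervals that follow are exact 95% conditional intervals for counting error.

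Mir338 had a log2 ratio of -0.51 (interval -0.54 to -0.47), 1.42-fold lower in replicate 2. Mir219a-2 had a log2 ratio of -0.13 (-0.17 to -0.08), 1.09-fold lower. Of the tested genes, 49.7% had a smaller absolute log2 ratio than Mir338 and 13.1% a smaller one than Mir219a-2. The median absolute log2 ratio was 0.51 over the tested genes and 0.41 over the 96 genes whose mean reached 1000 CPM. Mir338 was thus at the middle of the tested genes and above the median of the abundant ones, and Mir219a-2 among those that differed least.

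Those directions depend on the scaling of the libraries. The median log2 ratio of the tested genes was -0.19, and 61.4% of them were lower in replicate 2. Set against that median, Mir219a-2 lay slightly above and Mir338 below. Scaled by edgeR's TMM factors, Mir219a-2 had a log2 ratio of -0.0070, and by DESeq2 size factors of 0.063. Mir338 stayed lower in replicate 2 with either, at -0.38 and -0.31.

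The scarce members carried wide intervals. Mir219a-1 had a log2 ratio of -0.67, with an interval from -1.72 to 0.42, so neither a difference nor its direction was detectable at this depth. Mir3065 had a log2 ratio of -3.32 with the pseudocount, from 7 and 1 counts. Without it the level was 14.0-fold lower in replicate 2, with an interval from 1.80-fold to 632-fold. These values rest on 8 counts in all. Mir3065 reached the mean of 1 CPM only through replicate 1, where it is high, so nothing is read from them. Against the Mir338 locus as a whole, its shares were those given above, 0.0768% and 0.00778%.

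**Figure D5:**
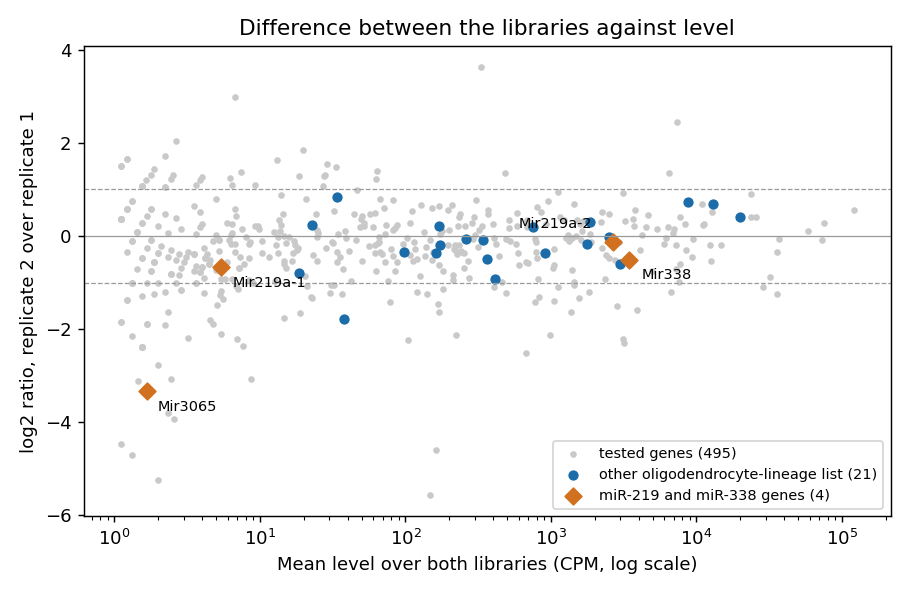
Log2 ratio of replicate 2 over replicate 1 against mean CPM on a log axis for the 495 tested genes, with dashed lines at 2-fold. Mir338 (-0.51), Mir219a-2 (-0.13) and Mir219a-1 (-0.67) lie within the lines, and Mir3065 (-3.32) lies below them.

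Other miRNAs described in oligodendrocyte precursors or their differentiation were read beside the group, from a list of 25 genes. Of these, 21 reached a mean of 1 CPM, and all 21 reached 1 CPM in both libraries. The rest were Mir19a, Mir19b-1, Mir199a-2 and Mir199a-1, the last with 0 counts. Most of the list is also expressed in other cells of the brain, and Mir138-1, Mir204, Mir146 and Mir145a are among the markers above. The list summed to 47391 and 61666 CPM in replicates 1 and 2, and its median level was 261 CPM.

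The 6 most abundant genes of that list were Mir23b, Mir125a, Mir23a, Mir138-1, Mir27b and Mir7b. Mir23a, which represses lamin B1 in mouse oligodendrocytes, stood at 6609 and 10910.4 CPM in replicates 1 and 2. Mir23b, its relative, stood at 17111 and 22843 CPM. Mir125a, an arm of which restrains the maturation of rat precursors, stood at 9945 and 15900.2 CPM. These genes were all above Mir338 and Mir219a-2 in both libraries.

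Mir138-1, whose mature miRNA has been described in early oligodendrocyte differentiation in mice, stood at 3602 and 2386 CPM, a range that overlaps those of both abundant members. Mir27b stood at 2505 and 2467 CPM, and Mir7b at 1651 and 2047 CPM. In the comparison of the libraries, 1 of the 21 tested genes passed 2-fold, against 25.9% of all tested genes and 17.1% of the 310 genes whose mean reached 10 CPM, as it did for each of the 21. The gene past 2-fold was Mir200a, better known from epithelia, with 59.0 and 17.0 CPM in replicates 1 and 2. The list's median log2 ratio was -0.08, against -0.19 over all tested genes. In the list 13 of 21 were lower in replicate 2, a share close to the 61.4% of all tested genes.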

How the data were processed

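The authors deposited raw counts per miRNA gene in 1 table per library, with columns for unstranded, sense and antisense reads after 4 rows of totals (unmapped, multimapping, unassigned, ambiguous). Reads were counted on mm10 with GENCODE M21 genes, per the file headers of the accompanying lists. For the aligner and the counter, names and settings were not given in the sources used. The labels point to a protocol for multiplexed miRNA libraries. Counts are per hairpin, so the mature arms are summed. Library sizes left out the totals.

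Genes were named, placed and matched to hairpin sequences with GENCODE M21, and to RefSeq's GRCm38.p6 hairpins, which were identical for all 6 members. Sense counts were scaled to CPM on the gene sum (30.2% and 37.2% of all reads in replicates 1 and 2). Ratios between libraries used a pseudocount of 0.5 counts over genes whose mean reached 1 CPM. Intervals are exact (Poisson, binomial, conditional binomial, 95%). Coverage was tested for the conditional intervals only, on simulated Poisson counts. That test says nothing of PCR duplication or of spread between tissue samples. PCR reads are not independent molecules. Folding used RNAfold 2.7.2. Scaling alternatives used edgeR 4.0.16 and DESeq2 1.42.0, and other steps Python 3.11.15 with scipy 1.17.1.

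Named genes are all members, the 3 genes nearest in level to each member at 1000 CPM or more, neighbours in rank, and from the lineage list the 6 most abundant and each tested gene past 2-fold. The rank neighbours, copy pairs and opposite-strand pairs were added after values were seen. The members and lists were chosen with earlier results of these data known. The genome sequence was not used here, so matches outside annotated transcripts were not searched.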

Additional observations from a re-analysis of the deposited data

How the results depend on the processing

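No paired analysis was possible because the libraries form 1 group. Unstranded counts gave 0 CPM for Mir338 and Mir219a-1, 0.241 CPM for Mir219a-2 and 2.41e-05% for the share of all 6 genes. Scaled to all reads, Mir338 was at 1138 CPM, Mir219a-2 at 893 CPM, Mir219a-1 at 1.78 CPM and the share at 0.203%. Without the 20 most abundant genes in the denominator they were at 10602.5, 8246 and 16.7 CPM, Mir3065 was at 4.999 CPM and the share at 1.89%. All genes of a library share its denominator, and both libraries held the same order of members, so neither denominator could change that order.

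TMM factors raised every log2 ratio by 0.12, DESeq2 size factors by 0.19 and all reads as denominator by 0.30. The ratio of Mir338 became -0.38, -0.31 and -0.20, and that of Mir219a-2 became -0.0070, 0.063 and 0.17, so its sign changed with DESeq2 size factors and with all reads. The number of genes past 2-fold was 128. It was 53 of 310 at 10 CPM or more, 288 of 734 with 1 count in either library, and 15 of 96 at 1000 CPM or more, a limit chosen after seeing the data. With TMM and DESeq2 factors it was 116 and 112. Of the genes past 2-fold, 70.3% were lower in replicate 2, against 62.9% and 60.7% with those factors and 86.5% with a pseudocount of 5 counts.

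With 2 libraries, leaving out 1 gives the value of the other and shows nothing about stability: 2844 to 4039 CPM for Mir338, 2546 to 2783 CPM for Mir219a-2, 4.20 to 6.65 CPM for Mir219a-1, 0.221 to 3.10 CPM for Mir3065, 0.54 to 0.683% for the share, and 0.16 to 0.54 for the log2 ratio of Mir338 over Mir219a-2. Unstranded counts gave no value for that last ratio. Depth limits Mir3065, Mir219b, Mir219a-1 and Mir219c, and reads that fit both Mir219a genes limit miR-219a.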
